A study of Mus musculus with 4 samples.

Results

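The cells described here are 1004 coronary capillary endothelial cells, out of 2080 endothelial barcodes and 21035 kept barcodes, from the hearts of wild-type CD1 mice at embryonic day 16.5. The hearts had been microdissected around the cardiac conduction system, and each region gave 1 single-cell library: the sinoatrial node (SAN) region, the atrioventricular node and His bundle (AVN/His) region, and the bundle branch and Purkinje fiber (BB/PF) region of each ventricle, left and right. Values of the 4 libraries are given below in that order. All 4 libraries share strain and stage, none was treated, and nothing in the labels says that they came from separate animals. The capillary cells numbered 214, 276, 197 and 317.

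Capillary endothelial cells line the smallest vessels of the myocardium, where fatty acids, oxygen and glucose pass from blood to muscle. In the heart they are known for a lipid uptake program: Gpihbp1 anchors lipoprotein lipase on the vessel wall, Cd36 takes up fatty acids, Fabp4 carries them inside the cell, and the transcription factors Meox2 and Tcf15 act together on these genes. The coronary vessels of the embryo grow partly by sprouting, in which the peptide apelin (Apln) is known from tip cells and its receptor Aplnr from the cells behind them and from veins. The endocardium is the endothelium that lines the heart chambers, and the coronary arteries carry their own gene set under Notch control.

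Members were chosen by a gate and not by clustering. A barcode entered with at least 500 detected genes, a muscle score under 1.5, which is the mean of ln(1 + UMIs per 10000) of Tnnt2, Myh6, Ttn, Actn2 and Ryr2, and unique molecular identifiers (UMIs) of at least 3 of the pan-endothelial genes Pecam1, Cdh5, Emcn, Egfl7, Cldn5, Kdr and Tie1. The summed UMIs of Fabp4, Gpihbp1 and Btnl9 had to be at least 2 and above those of the endocardial genes Npr3, Smoc1 and Irx5, and fewer than 2 of the arterial genes Gja4, Gja5, Cxcr4 and Hey1 could have a UMI. These 22 genes chose the cells, so their levels are a description with no test. The mirror gate on Npr3, Smoc1 and Irx5 gave 328, 68, 32 and 91 endocardial cells, and UMIs of at least 2 of the arterial genes, with fewer than 2 UMIs of the endocardial ones, gave 61, 67, 71 and 93 arterial cells. Capillary cells made up 29.0% (95% Clopper-Pearson interval 25.7 to 32.4), 55.6% (51.2 to 60.1), 61.8% (56.2 to 67.1) and 60.3% (55.9 to 64.5) of the endothelial barcodes. The share was lowest in the SAN library, where endocardial cells were the largest class, and the dissection decides which tissue each library holds. Intervals here cover counting error only.

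The libraries held 49328589 to 58029660 UMIs, and a median capillary cell had 8928 to 14310 UMIs. Each of the 6 pairs of libraries shared 38 to 54 cell barcodes, among them 1 capillary barcode. Xist, the transcript that silences an X chromosome in female cells, stood at 318, 0.498, 1396 and 501 CPM (UMIs of a gene per 1 M UMIs of the summed class), and the Y-linked Ddx3y at 64.6, 64.7, 9.62 and 51.5 CPM. The AVN/His library therefore held almost no Xist, its endocardial and arterial sums had none, and the makeup by sex cannot be told apart from the region. RNA of other cell types was found in 44, 54, 39 and 34 capillary cells, counting over 1% hemoglobin UMIs or UMIs of at least 2 macrophage, 3 pericyte or 4 fibroblast genes. UMIs of at least 2 of 8 lymphatic genes were found in 61, 32, 7 and 20 capillary cells. The lymphatic chemokine Ccl21a, which has near-identical gene copies and is therefore uncertain, was at 42.4 and 265 CPM in the SAN and AVN/His capillary sums and at 0 in both ventricles, and Mmrn1, a matrix protein of lymphatic vessels, at 10.9, 25.1, 0.849 and 1.08 CPM. Some members of those libraries thus carried lymphatic RNA, and the main counts below are also given without the cells that have 2 lymphatic genes.

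Members lay at different distances from the limits of the gate. The summed UMIs of Fabp4, Gpihbp1 and Btnl9 had medians of 31, 111, 100 and 116 per capillary cell, and 83.2%, 92.8%, 98.0% and 97.5% of members had over 10. Just inside the limit lay 9 members with a sum of 2, and just outside 18 cells with a sum of 1. At the limit on pan-endothelial genes lay 28 members with 3 of them and 25 cells with 2. One arterial gene was allowed, and 357 members had UMIs of 1 such gene, with a median of 16220 UMIs per cell, against 9885 UMIs in the 647 members with none. A further 172 cells had exactly 2 arterial genes and were left outside, but could enter the arterial class.

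Fabp4 was the most abundant of the choosing genes, at 3797, 10111, 7831 and 8188 CPM in capillary cells, against 50.6, 44.7, 35.2 and 90.9 CPM in endocardial cells and 3366, 7768, 7233 and 7359 CPM in arterial cells. It was lowest in the SAN library in both the capillary and the arterial class. Fabp4 (chr3:10204088-10208576 of mm10, minus strand) encodes the fatty acid binding protein, Gpihbp1 (chr15:75596628-75599481, plus strand) the lipase anchor, and Btnl9 (chr11:49165585-49187159, minus strand) a butyrophilin-like protein. Gpihbp1 reached 401, 962, 710 and 726 CPM in capillary cells, against 22.3, 4.33, 3.91 and 21.5 CPM in endocardial cells. Btnl9 reached 34.6, 141, 102 and 126 CPM in capillary cells and 1.81, 0, 0 and 2.39 CPM in endocardial cells. The tight junction gene Cldn5 followed the same split, at 201, 687, 445 and 497 CPM against 14.2, 0, 0 and 3.59 CPM in endocardial cells, while the pan-endothelial Egfl7 lay between 632 and 762 CPM in capillary sums and between 680 and 826 CPM in endocardial sums. Myocytes of the same libraries had Fabp4 at 11.4, 22.1, 11.6 and 13.2 CPM, and macrophage-like cells, a type that can express it, at 38.7, 33.6, 17.1 and 17.5 CPM. The macrophage-like values of left BB/PF, here and below, rest on 19 cells and few UMIs. A Fabp4 UMI was found in 18.8% to 32.4% of endocardial cells and in 8.42% to 18.4% of myocytes.

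**Figure D1:**
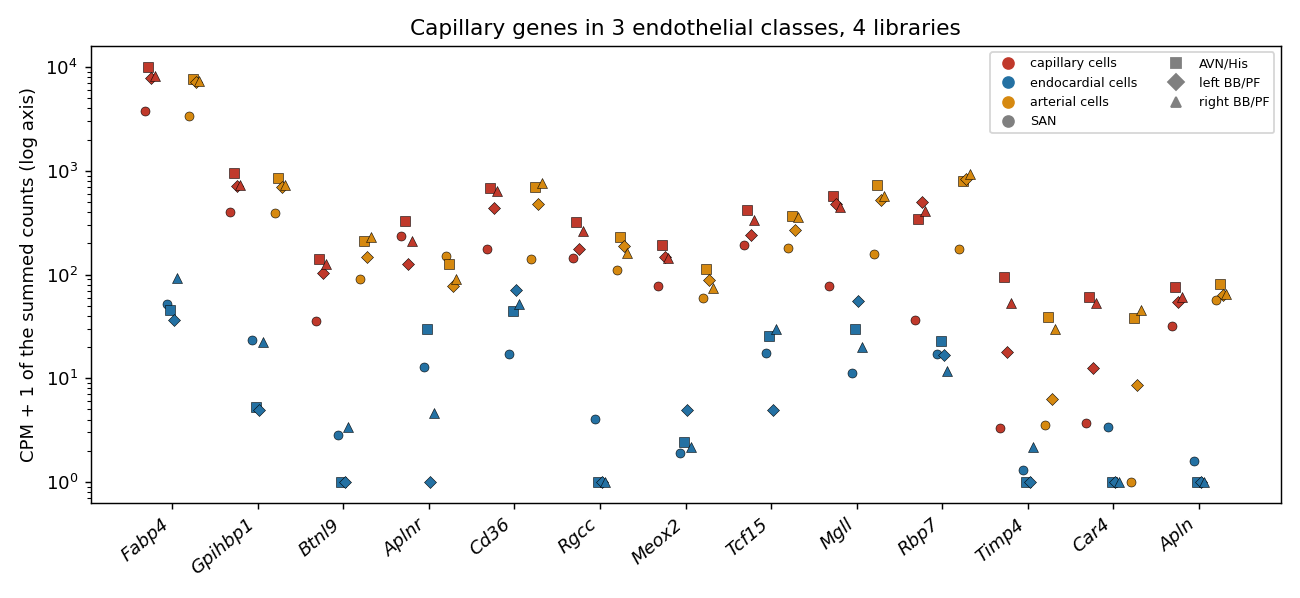
CPM + 1 on a log axis for 13 genes in the summed counts of capillary, endocardial and arterial cells, 1 symbol shape per library. Fabp4, Gpihbp1 and Btnl9 chose the cells, and the other genes were measured beside them. Capillary and arterial points lie close together for most genes, though Rbp7 is higher in arterial cells. Endocardial points lie lower, except for Car4 in the SAN library. The SAN library is the lowest capillary point for every gene shown but Aplnr.

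The first comparison asked which genes outside the gate set capillary cells apart from endocardial cells of the same libraries. Raw counts were summed per library and class and tested with edgeR's quasi-likelihood test with the library as a block. Of 9950 genes tested, 2140 were higher in capillary cells (21.5%) and 2017 lower (20.3%) at a Benjamini-Hochberg adjusted p under 0.05, with a median log2 difference of -0.02 over all tested genes. Both directions together made 41.8%, and 49.8% had an unadjusted p under 0.05. The 4 capillary CPM values lay all above the 4 endocardial ones in 11.9% of genes and all below in 20.1%. Because the gate used genes that vary together with many others, the test asks only whether a difference repeated over the 4 libraries, whose spread may be technical. Without the cells that have 2 lymphatic genes the counts were 1995 and 1775. Without the right BB/PF library they were 1445 and 1216, and with cells that have no arterial UMI at all, 1469 and 1217.

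Of the 13 capillary list genes outside the gate, all 13 were higher in capillary than in endocardial cells, against 21.5% of all genes, with a median log2 difference of 3.86. The list was picked as capillary markers with earlier results of these data known, so the direction of its genes is a description. Cd36 stood at 177, 682, 435 and 644 CPM in capillary cells, against 16.0, 43.3, 70.4 and 51.4 CPM in endocardial cells. The SAN library had the lowest value of each class, and the classes did not overlap. The log2 difference was 3.63 ± 0.17 (SE, edgeR adjusted p = 4.86e-09). Mgll, the lipase that releases fatty acids from monoacylglycerol, had 76.6, 571, 474 and 451 CPM in capillary cells, against 10.2, 28.8, 54.7 and 19.1 CPM in endocardial cells, a log2 difference of 3.90 ± 0.23 (edgeR adjusted p = 5.78e-08). Rbp7, a retinol binding protein, had 35.4, 341, 502 and 412 CPM in capillary cells and 16.0, 21.6, 15.6 and 10.8 CPM in endocardial cells. Its log2 difference of 3.56 ± 0.43 passed the edgeR test (adjusted p = 2.76e-05), although in the SAN library the classes differed far less than in the ventricles.

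Both transcription factors of the lipid program were among the 10 genes with the lowest p. Meox2 had 77.4, 192, 148 and 142 CPM in capillary cells, against 0.903, 1.44, 3.91 and 1.20 CPM in endocardial cells, which rest on 6 UMIs in all. The groups were far apart in each library, with a log2 difference of 6.59 ± 0.24 (edgeR adjusted p = 5.3e-10). Tcf15 had 191, 420, 240 and 333 CPM in capillary cells and 16.6, 24.5, 3.91 and 28.7 CPM in endocardial cells, a log2 difference of 3.86 ± 0.18 (edgeR adjusted p = 4.86e-09). Of 19 tested genes of fatty acid uptake and lipid handling, 10 were higher and 2 lower, against 21.5% and 20.3% of all genes, with a median of 0.78. The higher ones were Meox2, Tcf15, Cd36, Mgll, Rbp7, the lipases Lpl and Lipe, the lipase inhibitor Angptl4, the lipid-sensing receptor Pparg and the lipoprotein receptor Scarb1. The 2 lower ones were Fabp5, another fatty acid binding protein, and the lysosomal lipase Lipa.

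Other genes of the list are known for the handling of gas, water and matrix. Rgcc, a cell-cycle regulator known from hypoxic endothelium, had 144, 321, 174 and 264 CPM in capillary cells, against 3.01, 0, 0 and 0 CPM in endocardial cells. Car4, the carbonic anhydrase on the capillary surface, had 2.72, 59.3, 11.6 and 52.6 CPM in capillary cells, against 2.41, 0, 0 and 0 CPM in endocardial cells. In the SAN library these 2 Car4 values rest on 7 and 8 UMIs and do not differ beyond counting error. In left BB/PF the capillary value rests on 41 UMIs (8.32 to 15.7 CPM) and the endocardial 0 on a sum of only 255742 UMIs. That difference is not clear of counting error either. Timp4, an inhibitor of matrix proteases, had 2.33, 93.1, 17 and 51.9 CPM in capillary cells and 0.301, 0, 0 and 1.20 CPM in endocardial cells. Its endocardial level is 2 UMIs, and the pooled ratio was 119 with a counting interval of 32.7 to 981. The endocardial Timp4 value of 0 in left BB/PF comes from the same small sum. Sgk1, a kinase that acts on ion channels, was higher by 1.48 ± 0.14. The water channel Aqp1 (1.30 ± 0.40, adjusted p = 0.0194) and the receptor Cd300lg (0.79 ± 0.27, adjusted p = 0.0327) were the weakest edgeR calls of the list. Cd300lg lost the call in 6 of 17 alternatives, with adjusted p-values from 2.62e-07 to 0.249, and Aqp1 in 4, with values from 1.28e-20 to 0.119.

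The apelin receptor Aplnr (chr2:85136225-85139923, plus strand) had 235, 326, 124 and 209 CPM in capillary cells, against 11.7, 28.8, 0 and 3.59 CPM in endocardial cells. All 4 capillary sums lay above all 4 endocardial sums, and the log2 difference was 4.43 ± 0.28 (edgeR adjusted p = 9.4e-08). A UMI of Aplnr was found in 70.1%, 75%, 66.5% and 75.1% of capillary cells, and in 1.73%, 0%, 0% and 0% of the macrophage-like cells. The latter numbered 173, 71, 19 and 64 and had median UMI counts of 5612 to 6998. After each capillary cell was thinned to 3000 UMIs the Aplnr shares were 43.5%, 49.6%, 27.9% and 40.1%. Apln, the ligand, had 30.7, 74.2, 53.2 and 59.8 CPM in capillary cells and 0.602, 0, 0 and 0 CPM in endocardial cells, where it rests on 2 UMIs. The pooled Apln ratio was 146, with a counting interval of 40.3 to 1210. Apela, the other ligand of the receptor, had 2 UMIs in all capillary cells and was not testable. Ligand and receptor were thus both present in the capillary class. Cells with a thinned Apln UMI held Aplnr in 52.6%, 40%, 33.3% and 30.8% of cases, against 42.6%, 51.3%, 27.3% and 41.4% of cells without Apln, and the intervals overlapped in each library.

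Promoters of Meox2, Cd36, Rgcc and Apln, which were all higher in capillary cells, are shown so that their starts can be set beside these levels. The windows run from 250 bases before to 50 bases after the RefSeq start site (GRCm38.p6), with AGGAAG or its reverse complement, a core bound by ETS factors, in capitals.
Meox2 (chr12:37108290-37108589, plus strand): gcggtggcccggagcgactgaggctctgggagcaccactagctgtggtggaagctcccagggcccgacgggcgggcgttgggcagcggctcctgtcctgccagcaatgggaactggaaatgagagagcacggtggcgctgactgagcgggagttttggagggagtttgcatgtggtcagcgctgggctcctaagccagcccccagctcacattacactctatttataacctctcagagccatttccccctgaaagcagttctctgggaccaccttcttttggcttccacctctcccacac
Cd36 (chr5:17835847-17836146, minus strand): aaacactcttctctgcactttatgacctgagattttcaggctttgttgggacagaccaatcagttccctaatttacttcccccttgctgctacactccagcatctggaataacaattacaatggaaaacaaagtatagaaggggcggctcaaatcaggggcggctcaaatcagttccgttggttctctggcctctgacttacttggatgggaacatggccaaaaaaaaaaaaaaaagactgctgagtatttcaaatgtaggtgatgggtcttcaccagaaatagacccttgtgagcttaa
Rgcc (chr14:79301586-79301885, minus strand): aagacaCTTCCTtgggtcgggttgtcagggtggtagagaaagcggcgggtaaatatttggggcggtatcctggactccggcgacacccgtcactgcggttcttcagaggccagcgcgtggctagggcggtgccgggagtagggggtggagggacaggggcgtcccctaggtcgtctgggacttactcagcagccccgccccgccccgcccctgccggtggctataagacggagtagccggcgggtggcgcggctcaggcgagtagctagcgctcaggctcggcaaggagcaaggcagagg
Apln (chrX:48034804-48035103, minus strand): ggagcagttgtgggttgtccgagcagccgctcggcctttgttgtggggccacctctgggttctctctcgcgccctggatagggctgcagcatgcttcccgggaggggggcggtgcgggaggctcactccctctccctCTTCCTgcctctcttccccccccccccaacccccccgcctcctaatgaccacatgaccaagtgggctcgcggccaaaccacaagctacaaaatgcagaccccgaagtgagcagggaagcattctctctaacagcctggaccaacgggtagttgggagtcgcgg
Rgcc and Apln held 1 match each, as the reverse complement, and Meox2 and Cd36 held none in these windows. Among 32851 promoter windows of this length, 35.4% held a match, so the 4 genes show nothing beyond that share. AGGTCA, the repeat of nuclear receptor sites, occurred in 16.3% of windows on either strand, and once among the 4, in Cd36. A match is a run of letters and not a site.

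Several further genes led the higher calls. Pcdh17, an adhesion protein, had 193, 321, 246 and 328 CPM in capillary cells, against 5.72, 8.65, 0 and 7.17 CPM in endocardial cells. Sparcl1, a matrix protein of vessel walls, had 519, 1011, 883 and 1085 CPM in capillary cells, against 38.5, 26, 50.8 and 31.1 CPM in endocardial cells. Gnas, the stimulatory G protein subunit, had 5074, 5836, 4912 and 5288 CPM in capillary cells and 1303, 1125, 1462 and 1161 CPM in endocardial cells, so that a highly expressed gene differed by a log2 value of 2.20 ± 0.09 (edgeR adjusted p = 2.26e-09). Tmem255a (6.05 ± 0.30), 1810011O10Rik (3.84 ± 0.16), 8430408G22Rik (6.98 ± 0.31) and S100a16 (1.86 ± 0.09) completed the 10 with the lowest p beside Meox2, Tcf15 and Cd36.

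Of 14 tip cell genes, 13 were higher in capillary than in endocardial cells, against 21.5% of all genes, with a median log2 difference of 1.80, and the remaining one did not pass. They included the basement membrane gene Nid2 (3.02 ± 0.20), the sialomucin Cd34 (1.71 ± 0.13), the potassium channel subunit Kcne3 (3.88 ± 0.31), Apln, Pdgfb, which recruits pericytes, and the Notch ligand Dll4. Against arterial cells only Kcne3 of the 14 was higher, and 4 were lower, namely Unc5b, Igfbp3, Dll4 and Pdgfb. The shares of all genes there were 0.905% and 2.05%. Without the right BB/PF library 0 of the 14 were higher and 1 lower. Kcne3 stood at 100, 33.1, 132 and 64.9 CPM in capillary cells, against 8.43, 4.33, 0 and 1.20 CPM in endocardial cells. Nrp2, a co-receptor for VEGF that is listed as venous, was also higher (1.65 ± 0.19). Of 9 venous list genes tested, 2 (Aplnr and Nrp2) were higher and 7 lower, against 21.5% and 20.3% of all genes. Their median log2 difference was -1.42, and Plvap, Nr2f2 and Vwf were among the lower ones. Kitl, the stem cell factor, was higher, with 103, 254, 194 and 239 CPM in capillary cells against 17.8, 27.4, 23.5 and 9.57 CPM in endocardial cells.

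Glycolysis and hypoxia genes gave 12 higher and 0 lower calls of 20, against 21.5% and 20.3% of all genes, with a median of 0.73. The glycolytic enzymes Gapdh (1.29 ± 0.10), Pkm, Ldha (1.34 ± 0.11) and Eno1 (1.19 ± 0.12) had the lowest p. Ldha, for example, had 1036, 770, 1236 and 946 CPM in capillary cells, against 507, 361, 446 and 372 CPM in endocardial cells. Of 10 genes of caveolae and diaphragms, 6 were higher and 1 lower, beside the same shares of all genes, with a median of 0.70. Without the cells that hold RNA of other types 4 were higher. The coat genes Ptrf (the older symbol of Cavin1, 0.96 ± 0.09), Cav1, Cav2 and Prkcdbp (Cavin3) and the caveolar gene Ehd2 were higher with Aqp1. Plvap, which forms the diaphragms of fenestrae, was the lower one, with 89.9, 38.6, 17.3 and 22.2 CPM in capillary cells, against 579, 349, 727 and 716 CPM in endocardial cells, a log2 difference of -3.92 ± 0.43 (edgeR adjusted p = 1.08e-05). Transport and junction genes gave 9 higher and 2 lower of 18, beside the same shares of all genes, among them the drug pump Abcg2 (1.53 ± 0.15) and the junction protein Jam2 (1.55 ± 0.21), with Cgnl1 (-3.27 ± 0.23) on the lower side.

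Antigen presentation and immune contact genes gave 10 higher and 3 lower calls of 15, against 21.5% and 20.3% of all genes. The class I genes H2-D1, H2-K1, H2-T23 and B2m were higher, with Cd47, the signal that restrains phagocytes (1.70 ± 0.11). Ly6c1, a surface protein of capillary endothelium, had 13.6, 150, 95.1 and 134 CPM in capillary cells, against 1.81, 4.33, 0 and 0 CPM in endocardial cells, and Ly6a (3.84 ± 0.31) and Ly6e (1.86 ± 0.16) were higher too. All 3 Ly6 genes were lowest in the SAN capillary sum. Against arterial cells this list gave 1 higher call, Cd47, and 2 lower ones, Ly6a and Ly6e, of 15, against 0.905% and 2.05% of all genes. Ly6a lost that lower call in 7 alternatives, Ly6e in 5, and Cd47 lost its higher call in 9.

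Transcription factors split evenly, with 18 higher and 18 lower of 42, against 21.5% and 20.3% of all genes, and a median of -0.01. Beside Meox2 and Tcf15, the higher ones included Sox17 (4.78 ± 0.33), Mef2c (1.57 ± 0.11) and the ETS genes Fli1, Ets1 and Ets2. The lower ones included the endocardial and cushion factors Foxc1 (-3.51 ± 0.31), Hand2, Nfatc1, Gata4, Gata5, Gata6 and Tbx20. Sox17 had 46.7, 108, 57.7 and 75.9 CPM in capillary cells, against 1.20, 5.77, 11.7 and 1.20 CPM in endocardial cells. The Notch pathway gave 6 higher and 5 lower of 13, beside the same shares of all genes. The fringe enzymes Mfng (2.75 ± 0.20) and Lfng and the feedback gene Nrarp (2.29 ± 0.20) were higher, while the receptors Notch1 and Notch2 and the ligand Jag1 (-1.52 ± 0.41) were lower. BMP and TGF-beta genes gave 4 higher and 12 lower of 21, against 21.5% and 20.3% of all genes, with a median of -0.66. The share of higher genes was near that of all genes, and the share of lower genes was above it. The receptors Bmpr1a (-3.57 ± 0.26) and Tgfbr3 (-2.32 ± 0.16) and the BMP target Tmem100 (-3.52 ± 0.32) were lower.

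Of 11 endocardial list genes outside the gates, 10 were lower in capillary cells, against 20.3% of all genes. Adgrg6, an adhesion receptor, had 17.9, 8.96, 3.40 and 3.96 CPM in capillary cells, against 221, 163, 152 and 300 CPM in endocardial cells. The imprinted growth genes Plagl1, H19 and Igf2 all fell: Plagl1 (258, 189, 187 and 197 CPM in capillary cells, against 966, 740, 895 and 1207 CPM in endocardial cells), H19 (3873, 2726, 2814 and 2828 CPM, against 10965, 11295, 11574 and 15495 CPM) and Igf2 (1689, 1705, 1527 and 1464 CPM, against 4669, 4548, 4927 and 6051 CPM). Their log2 differences were -2.06 ± 0.11, -1.88 ± 0.11 and -1.52 ± 0.09. The imprinted cell-cycle inhibitor Cdkn1c was also lower (-2.65 ± 0.23), with 588, 307, 330 and 306 CPM in capillary cells and 2332, 1252, 4203 and 3240 CPM in endocardial cells, and so was Igf2r (-1.93 ± 0.16), which clears Igf2. Cited2, Hmcn1, Eps8, Phactr2, Cgnl1, Col5a2 and Tgfbr3 completed the 10 lower genes with the lowest p. The angiopoietin receptor Tek was lower (-1.88 ± 0.15) and its antagonist ligand Angpt2 higher (1.11 ± 0.33), a call that was lost without the SAN library, without the AVN/His library and in DESeq2.

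Genes of other cell types moved with this comparison. Of 9 fibroblast genes 6 were lower in capillary cells, against 20.3% of all genes. Their summed level was 32.8 to 833 CPM in capillary sums, against 1086 to 1870 CPM in endocardial sums. Of 10 pericyte and smooth muscle genes 7 were testable, of which 4 were higher and 1 lower, against 21.5% and 20.3% of all genes. Their sums were 80.4 to 189 CPM in capillary cells and 66.5 to 127 CPM in endocardial cells. Of 9 cardiomyocyte genes tested, Myl2 and Myl3 were higher and Tnni1 lower, shares near those of all genes. Myl2 lost the call in 11 alternatives, Myl3 in 8 and Tnni1 in 2. With the cells that hold RNA of other types left out, 1737 genes were higher and 1588 lower, and the capillary list kept 12 of 13 higher calls and the tip cell list 11 of 13. The part of this RNA in the single calls was not tested.

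**Figure D2:**
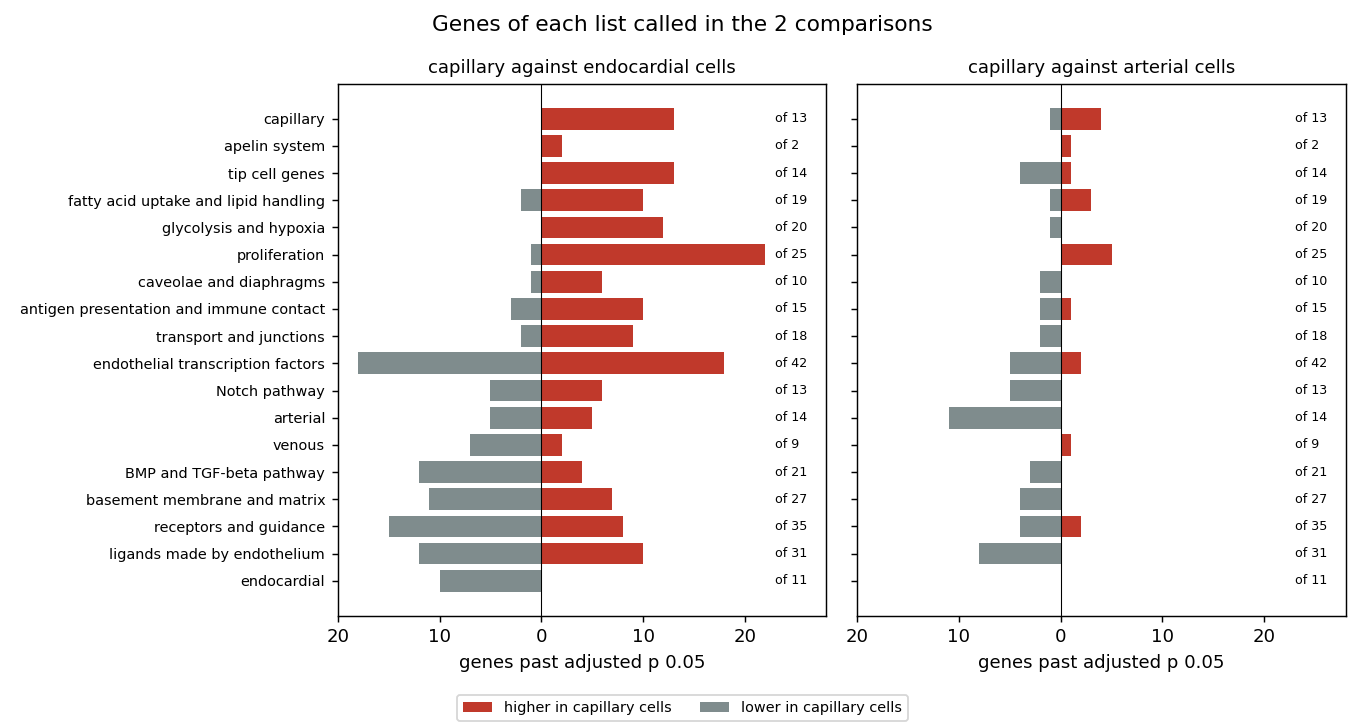
Number of genes of each list that passed an adjusted p of 0.05, drawn to the right where higher in capillary cells and to the left where lower, with the number of genes tested at the right edge. The left panel is capillary against endocardial cells and the right panel capillary against arterial cells. The capillary and tip cell lists have 13 higher genes each in the left panel, and 4 and 1 in the right panel. In the right panel 1 capillary list gene and 4 tip cell genes are lower.

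Against arterial cells of the same libraries far fewer genes differed. Of 9950 genes, 90 were higher in capillary cells (0.905%) and 204 lower (2.05%), and the median over all genes was 0.01. Both directions made 2.95%, an unadjusted p under 0.05 was reached by 16.1%, and all 4 capillary CPM values lay above the 4 arterial ones in 2.67% of genes and below in 2.99%. These counts rest on few libraries. They were 140 and 255 without the SAN library, 6 and 84 without AVN/His, 21 and 100 without left BB/PF, and 2 and 57 without right BB/PF, and without the library block 5 and 54. Without cells that have 2 lymphatic genes they were 117 and 254. The arterial gate needs UMIs of 2 scarce genes, and the median arterial cell had 14950 to 24320 UMIs. It sets no limit on Fabp4, Gpihbp1 or Btnl9, so an arterial cell may differ from a capillary member only in its arterial UMIs. Besides the 292 arterial cells of the gate, 304 cells were counted that met the capillary gate but for UMIs of 2 or more arterial genes. These 2 groups can share cells.

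Of the 13 capillary list genes 4 were higher than in arterial cells and 1 lower, against 0.905% and 2.05% of all genes. Aplnr had 235, 326, 124 and 209 CPM in capillary cells, against 149, 126, 76.6 and 90.3 CPM in arterial cells. It was higher in 4 of 4 libraries, with a log2 difference of 0.98 ± 0.18 (edgeR adjusted p = 0.0112), though the groups overlapped across libraries. Meox2 had 77.4, 192, 148 and 142 CPM in capillary cells, against 58.6, 112, 88.1 and 73.5 CPM in arterial cells, a log2 difference of 0.74 ± 0.11 (edgeR adjusted p = 0.00187). Timp4 (1.14 ± 0.21, adjusted p = 0.00904) and Kcne3 (0.80 ± 0.20, adjusted p = 0.0439) were the other higher edgeR calls, and Rbp7 was lower (-1.24 ± 0.31, adjusted p = 0.0457). None of these 5 calls held without the right BB/PF library, and over all alternatives the adjusted p ran from 7.51e-13 to 0.282 for Aplnr and from 1.05e-06 to 0.25 for Meox2. For Cd36 the log2 difference was -0.03 ± 0.13 (adjusted p = 0.948) and for Tcf15 -0.00 ± 0.13, and neither passed the edgeR test. Apln had 30.7, 74.2, 53.2 and 59.8 CPM in capillary cells and 56.1, 80.2, 62.6 and 63.3 CPM in arterial cells, and its difference of -0.29 ± 0.14 did not pass either (adjusted p = 0.353).

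The higher call with the lowest p was Odc1. Odc1, the first enzyme of polyamine synthesis, had 519, 291, 422 and 428 CPM in capillary cells, against 245, 109, 202 and 116 CPM in arterial cells, with no overlap and a log2 difference of 1.34 ± 0.16 (edgeR adjusted p = 0.000381). The replication helicase subunit Mcm3 (0.80 ± 0.13), the histone chaperone Nasp (0.59 ± 0.10), the single-strand binding protein Rpa2 (0.68 ± 0.12), the nucleolar Nop56 (0.66 ± 0.12), the repair enzyme Ung (0.85 ± 0.15) and the purine enzyme Paics (0.52 ± 0.10) followed, with Meox2, Timp4 and Aplnr among the 10. Without the right BB/PF library, Mcm3, Nasp, Rpa2, Nop56, Ung and Paics all lost the call, and all of these but Mcm3 also lost it without AVN/His and with no library block. Odc1 kept it in every alternative. In the proliferation list 5 of 25 were higher, namely Mcm3, Mcm5, Tyms, Mcm7 and Rrm2, and 0 lower, against 0.905% and 2.05% of all genes. That count was 11 without the SAN library, 1 without AVN/His, 1 without left BB/PF and 0 without right BB/PF.

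The lower calls were led by the chemokine Cxcl12, which had 4.67, 18.9, 4.24 and 21.3 CPM in capillary cells, against 291, 415, 146 and 509 CPM in arterial cells, a log2 difference of -4.82 ± 0.19 (edgeR adjusted p = 5.54e-09). Cxcl12 is the ligand of Cxcr4, a gene of the gate. Stmn2 (-3.22 ± 0.23), Pcsk5 (-3.42 ± 0.25), Mecom (-1.56 ± 0.12), Fads3 (-2.39 ± 0.19), Myo10 (-1.42 ± 0.12), Tm6sf1 (-1.26 ± 0.11), Vegfc (-2.47 ± 0.23), Aoc3 (-1.35 ± 0.13) and Sema3g (-3.26 ± 0.32) followed. Of 14 arterial list genes outside the gate 11 were lower and 0 higher, against 2.05% and 0.905% of all genes, with a median of -1.53. Among the lower ones were Sox17 (-1.20 ± 0.16), the ephrin Efnb2 (-1.22 ± 0.13) and the Notch ligands Jag1 (-2.62 ± 0.35), Jag2 and Dll4. With 1 library left out, 8 to 12 genes of this list were lower, out of 13 to 15 tested. Notch genes gave 0 higher and 5 lower calls of 13, and ligands made by endothelium 0 and 8 of 31, against 0.905% and 2.05% of all genes. Sox17 thus lay between the classes, at 46.7 to 108 CPM in capillary cells, 112 to 209 CPM in arterial cells and 1.20 to 11.7 CPM in endocardial cells. Summed erythroid RNA was 9090.5 to 17355 CPM in capillary cells, against 17733 to 36566 CPM in arterial cells. Of its 6 tested genes 2 were lower, against 2.05% of all genes. Of 7 pericyte and smooth muscle genes 3 were lower, against 2.05% of all genes, with sums of 80.4 to 189 CPM in capillary cells and 172 to 324 CPM in arterial cells. The part of this RNA in other calls was not tested.

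Cell-cycle genes were counted per cell. In the summed counts 22 of 25 proliferation genes were higher in capillary than in endocardial cells and 1, Cdkn1c, lower, against 21.5% and 20.3% of all genes, with a median of 1.04. Cdk1 had 138, 190, 235 and 136 CPM in capillary cells, against 86.1, 57.7, 93.8 and 32.3 CPM in endocardial cells, and Ube2c (1.55 ± 0.21) and Birc5 (1.59 ± 0.23) were also among the lowest p. After thinning to 3000 UMIs, UMIs of at least 2 of Mki67, Top2a, Ccnb1, Cdk1, Birc5 and Cenpf were found in 30.8%, 35.1%, 46.7% and 31.2% of capillary cells, against 15.5%, 13.2%, 18.8% and 4.40% of endocardial cells and 21.3%, 26.9%, 38.0% and 20.4% of arterial cells. The means were 36.0% ± 7.4 in capillary cells, 13.0% ± 6.2 in endocardial cells and 26.7% ± 8.1 in arterial cells (SD, n = 4). Capillary cells were higher than endocardial cells in 4 of 4 libraries, by 23 ± 5.8 percentage points, and higher than arterial cells in 4 of 4, by 9.32 ± 1.12. The two-sided exact sign-flip permutation test gave p = 0.125 in both cases, which is the smallest it can give with 4 libraries and cannot pass 0.05. Without thinning the shares were 53.4%, 21.9% and 44.9%, and the difference from arterial cells was 8.45 ± 4.35 points. With other choices of cells, each thinned anew, that difference was 7.68 to 9.98 points, with SDs of 3.10 to 6.89. The SD of 1.12 therefore rests on 1 thinning draw. Without cells that hold RNA of other types, left BB/PF had 43.0% in capillary and 42.5% in arterial cells.

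**Figure D3:**
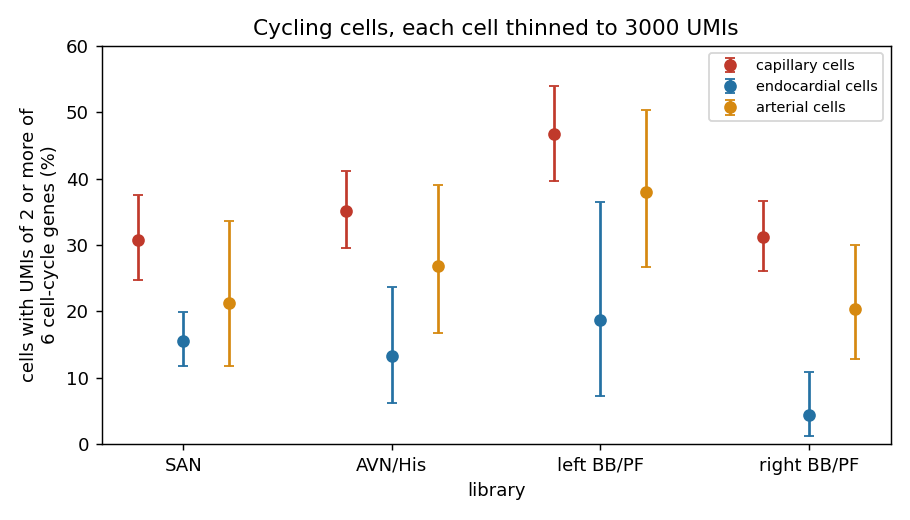
Percentage of capillary, endocardial and arterial cells with UMIs of at least 2 of 6 cell-cycle genes after thinning to 3000 UMIs per cell, by library. Bars are 95% Clopper-Pearson intervals for counting error. Capillary points lie between 30.8% and 46.7%, above the endocardial and arterial points of the same library in all 4 libraries.

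Capillary cells also differed between the 4 regions. With 1 library per region there is no test of a region, and a gene was counted when it reached 50 CPM in at least 1 capillary sum, the exact Poisson intervals of the highest and lowest library were apart, and their ratio was at least 3. Of 3110 genes at 50 CPM, 132 met this (4.24%). The SAN library was the highest in 57 of them and the lowest in 50. Of the 16 capillary list genes 8 met it, and the SAN library was the lowest in 6 of these: Timp4, Car4, Rbp7, Mgll, Btnl9 and Cd36. The gate used Btnl9, so its place here is a description. Timp4 ranged from 2.33 CPM in SAN to 93.1 CPM in AVN/His, 17 CPM in left and 51.9 CPM in right BB/PF. Rbp7 had 35.4 CPM in SAN and 341 to 502 CPM in the other libraries. Arterial cells of the SAN library were also the lowest of their class for Rbp7, at 176 CPM against 798 to 940 CPM. Aplnr and Apln did not meet the rule: Aplnr was lowest in left BB/PF and Apln lowest in SAN.

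Of all 3110 genes at 50 CPM, 57 met the rule with SAN capillary cells highest. Among these 57 were 5 of the 22 matrix genes at 50 CPM, 3 of 7 venous, 4 of 5 fibroblast, 3 of 10 cardiomyocyte and 2 of 7 arterial list genes. Eln, the elastin gene, had 464, 175, 3.68 and 6.85 CPM in capillary cells, against 139, 611, 168 and 160 CPM in endocardial cells. Fbln5, which assembles elastic fibers, had 91.8, 38.1, 0.283 and 1.08 CPM. Vwf, the clotting factor of larger vessels, had 87.9, 19.2, 1.13 and 3.78 CPM, and Edn1, the constrictor peptide endothelin, 98.4, 15.4, 1.70 and 1.80 CPM. Both ventricles were therefore low, SAN was high and AVN/His lay between for all 4 genes. In endocardial cells Vwf was 127 to 228 CPM and Edn1 154 to 181 CPM in every library, so the gradient was not shared by that class. The venous factor Nr2f2 had 219, 71.2, 57.4 and 56.8 CPM in capillary cells, against 260, 280, 199 and 255 CPM in endocardial cells, and was named after its values were seen. Bgn (266, 119, 16.1 and 31.9 CPM), Tgfbi (129, 18.2, 3.96 and 11.7 CPM), Ccl2 (81.3, 3.98, 4.24 and 11.5 CPM), Mmp2 (72.4, 28.4, 3.68 and 14.4 CPM) and Bmp4 (53.7, 31.4, 2.83 and 19.1 CPM) were also highest in SAN, while Dcn (111, 167, 3.40 and 11.5 CPM) and Mfap2 (71.6, 78.2, 4.53 and 17.8 CPM) were highest in AVN/His. That order turned with Scrublet-scored cells left out and with cells that hold RNA of other types left out, for Mfap2 also without cells that have 2 lymphatic genes. The matrix genes Eln, Dcn and Bgn were also detected in macrophage-like cells of the SAN and AVN/His libraries, at 80.0 and 449 CPM, 418 and 404 CPM, and 161 and 146 CPM.

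Lymphatic and fibroblast RNA moved with this pattern. Lyve1, a hyaluronan receptor of lymphatic vessels and macrophages, had 135, 52.8, 1.42 and 5.58 CPM in capillary cells, against 88.8, 38.9, 54.7 and 88.5 CPM in endocardial cells. Summed lymphatic genes were at 280, 443, 48.7 and 53.9 CPM in capillary cells, and summed fibroblast genes at 833, 699, 32.8 and 158 CPM. Without the cells that have 2 lymphatic genes, a list that holds Lyve1 itself, SAN capillary cells still had 53.7 CPM of Lyve1, and AVN/His cells 0.302 CPM. The same cells left Eln at 682 CPM, Vwf at 102 CPM and Edn1 at 112 CPM in SAN, against 3.66, 1.22 and 1.83 CPM in left BB/PF, so these differences were as large without them. Eln, Fbln5 and Bmp4 depended on the gate: among capillary cells with no arterial UMI, Eln stood at 117 CPM in SAN and 241 CPM in AVN/His, Fbln5 at 23.8 and 44.6 CPM, and Bmp4 at 30.1 and 34.5 CPM, so that SAN was no longer the highest, and with 5 or more pan-endothelial genes Eln was 247 CPM in SAN. Vwf, Edn1 and Bgn also fell in SAN among capillary cells with no arterial UMI, to 44.8, 56.6 and 149 CPM, but stayed highest there. Arterial cells had 1481, 266, 13.5 and 218 CPM of Eln. Without the cells that hold RNA of other types, Dcn fell to 12.8 and 12.3 CPM in the SAN and AVN/His libraries, while Eln was 499 CPM in SAN and 72.7 CPM in AVN/His. Rbp7 remained low in SAN under both, at 34.1 and 38.3 CPM.

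Muscle genes among the largest ratios were also found in macrophage-like cells. Myl7, the atrial light chain, had 429, 25.2, 10.2 and 5.05 CPM in capillary cells, 426, 59.1, 11.7 and 7.17 CPM in endocardial cells and 452, 28.6, 8.57 and 6.56 CPM in macrophage-like cells. Nppa and Sln were likewise highest in SAN in both capillary and macrophage-like cells, with Nppa at 258 CPM in capillary and 398 CPM in macrophage-like cells, and Myl2 was lowest in SAN in both. Such levels are therefore not counted here as capillary expression, and their source was not tested. The remaining gene of the 10 with the largest ratio, beside Eln, Fbln5, Lyve1, Vwf, these 4 muscle genes and Ccl21a, was Xist.

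**Figure D4:**
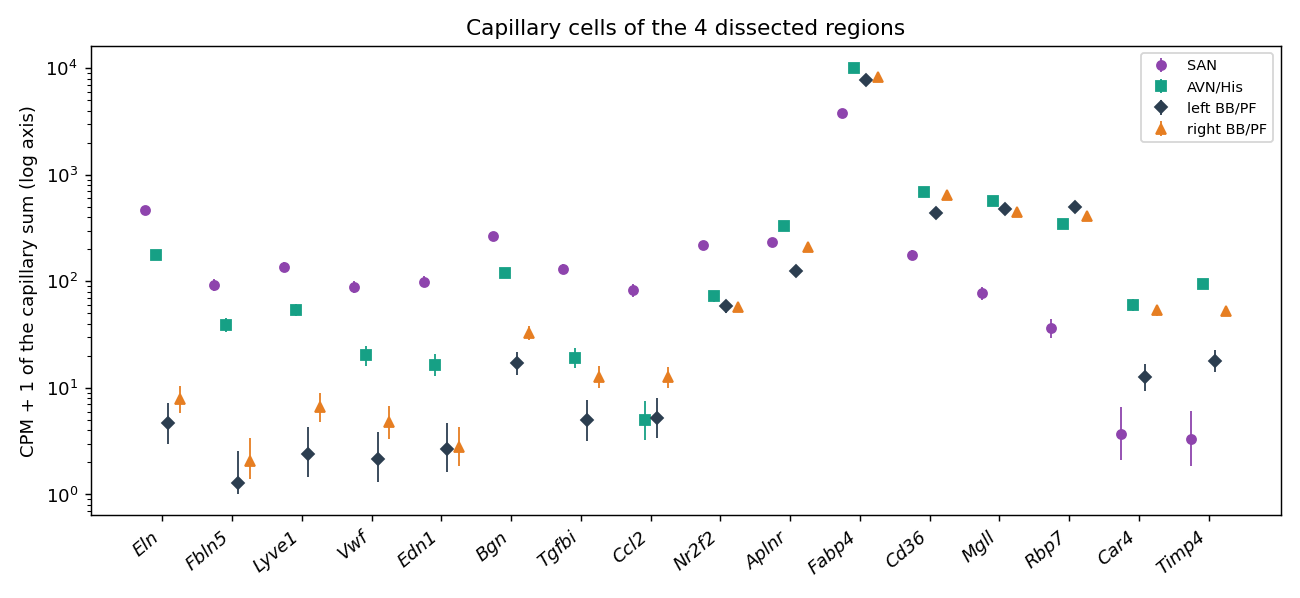
CPM + 1 on a log axis of 16 genes in the capillary sums of the 4 libraries, with 95% exact Poisson intervals for counting error. Eln, Fbln5, Lyve1, Vwf, Edn1, Bgn, Tgfbi, Ccl2 and Nr2f2 are highest in the SAN library, while Fabp4, Cd36, Mgll, Rbp7, Car4 and Timp4 are lowest there.

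Single capillary cells varied widely within a library. Per 10000 UMIs, Fabp4 had a median of 28.9 in SAN, with 10% of cells under 7.39 and 10% above 74.95, and a median of 101 in AVN/His with limits of 23.7 and 155. Fabp4 is a gene of the gate. Cd36 had medians of 1.18, 5.83, 4.23 and 5.20, and the SAN 90% limit of 4.74 lay below the AVN/His median. The pan-endothelial Cdh5 had medians of 3.55, 5.28, 4.39 and 5.56. Meox2 and Tcf15 were found in the same thinned cells in part: cells with a Meox2 UMI held Tcf15 in 58.8%, 67.0%, 43.1% and 55.2% of cases, against 34.4%, 60.9%, 47.7% and 55.2% of cells without Meox2. The intervals of the 2 shares overlapped in all 4 libraries, in SAN narrowly (40.7 to 75.3 with a Meox2 UMI and 27.5 to 41.9 without).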

How the data were processed

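The 4 libraries were made by the 10x Genomics 3' protocol, with 1 file of counts each. The deposited values are UMI counts per gene and barcode, which the authors produced by running Cell Ranger, with its default settings, on mm10, with no normalization; the release of the annotation was not given in the sources used here. The members and gene lists were chosen with earlier results of these data known. Counts were read as deposited, barcodes with at least 500 genes were kept, and the gate was applied to raw UMIs. Doublets were not removed; Scrublet (scanpy 1.11.5) scores over 0.2 marked 77 to 183 barcodes per library and entered only as an alternative. CPM is the count per 1 M UMIs of a summed class.

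Sums per library and class (12 sums) were fitted together by the quasi-likelihood method of edgeR 4.0.16 in R 4.3.3, with limma 3.58.1 beneath it, after filterByExpr and TMM scaling (glmQLFit, then glmQLFTest), library as a block with 6 residual degrees of freedom, Benjamini-Hochberg adjustment at 0.05 over 9972 tested genes, of which 22 are gate genes. Standard errors are the log2 difference over the square root of F. The block pairs classes cut from the same library. Counts were also simulated with few changes, all in the capillary class: of 9739 genes tested, 96 changed 2-fold and 95 changed 4-fold. There the test recovered 59.4% of 2-fold and 98.9% of 4-fold changes against endocardial cells, and 70.8% and 98.9% against arterial cells. The real comparison with endocardial cells called 41.8% of genes, a setting that was not simulated, so these shares may not hold for it. Cells were thinned to 3000 UMIs with a fixed seed for shares. Genes named were the gate genes, the capillary list and apelin system, the 10 with the lowest p per direction and comparison, the 4 with the lowest p per list, and the 10 with the largest ratio between regions, over all genes and among genes whose endocardial sums differed by less than 1.5 times; any further genes were picked once their values had been seen. Coordinates of genes are from GENCODE M21 (GRCm38, the same assembly as mm10), matched by Ensembl identifier. Cavin1, Cavin2 and Cavin3 carry older symbols in the files. The scripts ran in Python 3.11.15 with pandas 2.3.3, scipy 1.17.1, matplotlib 3.10.9 and numpy 2.4.6; DESeq2 1.42.0 served for alternatives only. Alternatives were other size factors, the DESeq2 Wald test, no filter, no block, thinned cells, other gates and each library left out; leaving out cells with 2 or more lymphatic genes was chosen after seeing the data.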

Additional observations from a re-analysis of the deposited data

Results flagged for a closer look

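For 2 genes the SAN library ran against both ventricles in the comparison of capillary with endocardial cells, each beyond counting error. Eln was higher in capillary cells by a log2 ratio of 1.74 in SAN (95% interval 1.58 to 1.90), against -5.51 in left and -4.55 in right BB/PF, with -1.80 in AVN/His. Lyve1 was higher by 0.61 in SAN (0.38 to 0.84), against -5.27 and -3.99 in the ventricles, with 0.44 in AVN/His, where the interval of -0.14 to 1.07 includes 0. Each region is 1 library, so the difference between regions was not tested. Among capillary cells with no arterial UMI, Eln in SAN was 117 CPM. Without the cells that have 2 lymphatic genes, a list that holds Lyve1, capillary Lyve1 fell from 135 to 53.7 CPM in SAN. In AVN/His it fell from 52.8 to 0.302 CPM.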

How the results depend on the processing

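Against endocardial cells, the 2140 higher and 2017 lower genes kept within 1.5 times in 12 and 11 of 13 alternatives that use all libraries. The exceptions were thinned cells, with 678 higher and 763 lower among fewer genes tested, and, for the lower genes, cells with no arterial UMI (1217). Leaving out 1 library gave 1445 to 2072 higher and 1216 to 1887 lower. Against arterial cells, the 90 higher and 204 lower genes became 342 and 390 with no filter, 5 and 54 with no replicate block, 30 and 71 with thinned cells, and 192 and 327 with no arterial UMI allowed; leaving out 1 library gave 2 to 140 higher and 57 to 255 lower. The cause of these moves was not tested, except that thinning removes most counts. Of the genes called against endocardial cells, 18 higher ones had the opposite sign with thinned cells, and 2 higher and 4 lower ones with no arterial UMI; no named gene reversed. Of 108 named genes called against endocardial cells 85 kept the call in every alternative, and 13 of 40 against arterial cells. The gates gave 647 capillary cells with no arterial UMI and 833 to 1003 under the others, against 1004 here. Mean levels of Fabp4, Aplnr, Cd36 and Meox2, the number of genes that differed between regions and the cycling differences kept their size or side in the alternatives run for them. With 1 library per region, depth limits genes under about 1 CPM in the capillary sums, which held 2570774 to 5550222 UMIs. The endocardial sums of AVN/His, left BB/PF and right BB/PF held only 693417, 255742 and 836291 UMIs. The arterial sums held 1193831 to 2076682 UMIs. The limit lies higher in these smaller sums, so a low or missing value there does not show absence.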
